A study of Mus musculus with 12 samples.

Results

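The sirtuins and the genes of NAD salvage were followed with age in the aorta (its descending part) of mice, all males of the strain C57BL/6, at 6 months and at 20 months. The members were the 7 sirtuin genes Sirt1 to Sirt7 and 3 genes that set the NAD supply, Nampt, Nmnat1 and Cd38. They were chosen by name: every gene probe of the array whose gene name equals a member was taken, which gave 13 probes for 10 genes, of 16853 genes and 27583 probes tested in all. Each age had 6 mice, with no genotype or treatment beyond age, and 1 array per mouse. Total RNA of the whole vessel was labelled with Cy3 and hybridised to Agilent 1-colour arrays. The aortas had been flushed and cleaned of surrounding fat and connective tissue before freezing. Whole vessels mix several cell types, so that fewer cells of a type and less RNA per cell cannot be told apart.

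NAD carries electrons in energy metabolism and is consumed by enzymes that split it to nicotinamide. NAMPT, the rate-limiting enzyme of the salvage route, turns nicotinamide into nicotinamide mononucleotide, and the NMNAT enzymes complete NAD, NMNAT1 in the nucleus. Sirtuins use NAD to remove acetyl and other acyl groups from proteins: SIRT1, SIRT6 and SIRT7 work mainly in the nucleus, SIRT2 mainly in the cytosol, and SIRT3, SIRT4 and SIRT5 in mitochondria. CD38 is a membrane enzyme that degrades NAD. In vessels, SIRT1 is known for its action on endothelial nitric oxide synthase and SIRT3 for its action on mitochondrial antioxidant enzymes.

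All 13 probes stood well above background on all 12 arrays, and none was saturated on any array. Sirt4, Sirt6 and Sirt7 had 2 probes each and the other genes 1. For 3 of the probes the sequence is shown, because the first holds the sirtuin signature, the second is the dimmer probe of the gene whose probes disagreed in sign, and the third reads the gene with the smallest p between the ages. Capitals in the Sirt7 probe mark GGNGCNGGN, the codons of the Gly-Ala-Gly stretch that opens the NAD-binding loop of sirtuins. This motif was found in a frame without a stop codon in 1 of the 13 probes. In 12 of the 13, at least 1 of the 3 forward frames had no stop codon over the whole probe. No coding annotation was used, so this does not show which probes lie in coding sequence. The sequences are those of the array files, read on the given strand.
Sirt7 probe at transcript position 304 (mm9 chr11:120485809-120485868, minus strand): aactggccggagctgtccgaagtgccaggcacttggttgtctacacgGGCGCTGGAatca
Sirt4 probe at transcript position 1140 (mm9 chr5:115929657-115929716, minus strand): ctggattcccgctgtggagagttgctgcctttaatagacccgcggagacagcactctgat
Nmnat1 probe at transcript position 831 (mm9 chr4:148842959-148843018, minus strand): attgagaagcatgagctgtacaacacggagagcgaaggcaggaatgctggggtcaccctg

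None of the 10 genes passed the test between the ages. All values below are log2 signals relative to the 75th percentile of the array, and a change is 20 months minus 6 months. With limma and Benjamini-Hochberg adjustment over all genes, 0 of 10 genes had an adjusted p under 0.05, with adjusted p values from 0.713 to 0.976, beside 0.314% of all genes tested (44 higher and 9 lower at 20 months). At an unadjusted p under 0.05 there were again 0 of 10, beside 7.99% of all genes. The values of the ages overlapped in each of the 10 genes, and 0 were without overlap, beside 0.813% of all genes. Of the 13 probes, 0 passed in the fit over all probes, beside 0.257% of all probes, and 0 had an unadjusted p under 0.05. The changes were positive in 3 genes and negative in 7, with a median of -0.15. Over all genes 43.9% were positive and the median change was -0.02. The standard errors ran from 0.08 to 0.22, beside a median of 0.115 over all genes. The widest 95% interval reached a change of -0.78, for Sirt5, so larger changes than that lie outside every interval.

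**Figure D1:**
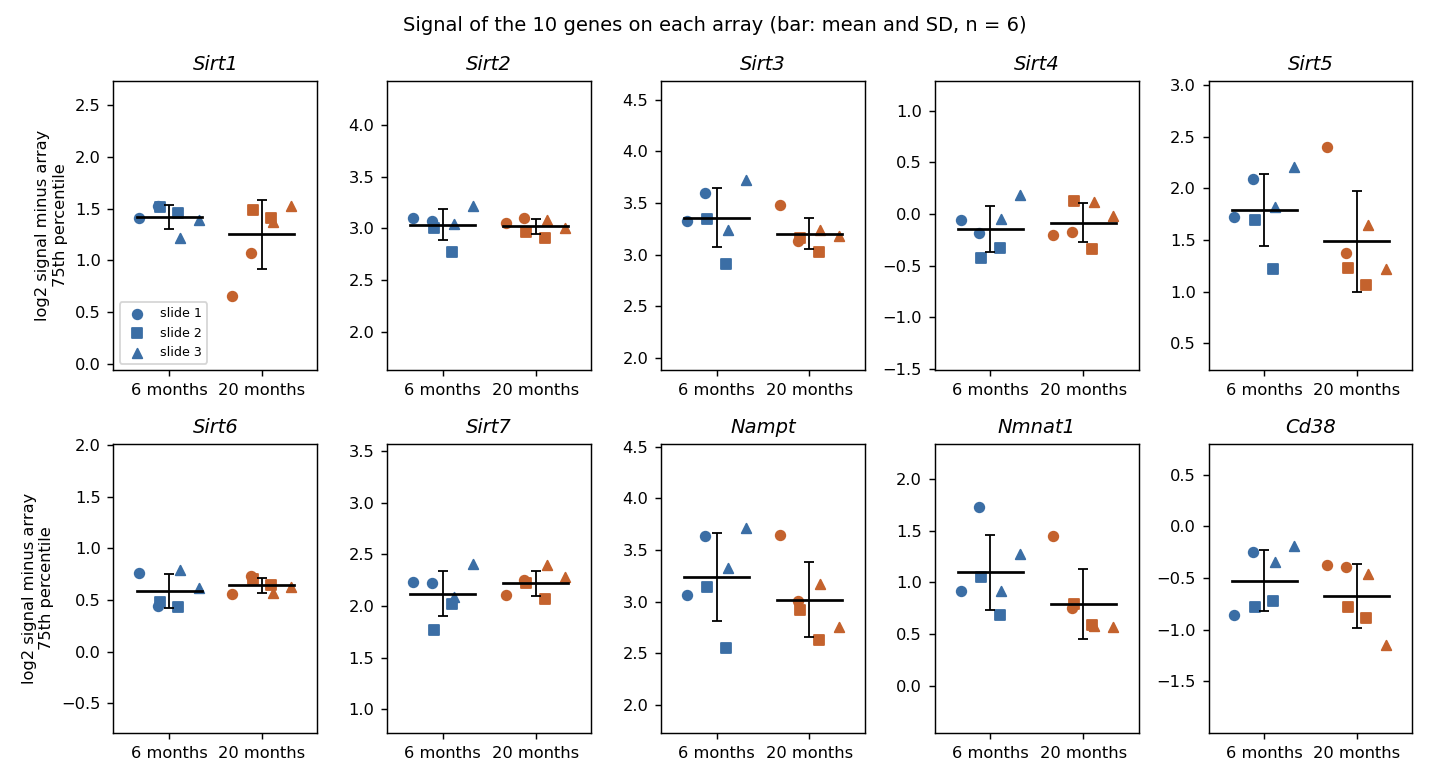
Log2 signal relative to the 75th percentile of the array (vertical axis) in each of the 12 arrays for the brightest probe of each of the 10 genes, by age, with the mean and SD of 6 mice and symbols for the slides. The ages overlap in every gene, and the array of 20 months replicate 1 is the lowest for Sirt1 at 0.66 and the highest for Sirt5 at 2.40.

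The salvage genes come first. Nampt (mm9 chr12:33535475-33535534, plus strand) ran from 2.55 through a median of 3.23 to 3.71 at 6 months and from 2.63 through 2.96 to 3.64 at 20 months. The ranges were nearly the same, while 1 of 6 old mice lay above the median of the young mice. The means were 3.24 ± 0.43 and 3.02 ± 0.36 (SD, n = 6 each), a change of -0.22 (SE 0.21, 95% interval -0.66 to 0.23, limma adjusted p = 0.807). The standard error of Nampt lay at the 87.3th percentile of all genes, so that its values varied more between mice of an age than those of most genes. With single arrays left out, the change of Nampt ran from -0.36 (without 6 months replicate 5) to -0.12 (without 6 months replicate 6). It was -0.34 without 20 months replicate 1 and -0.14 without either 6 months replicate 3 or 20 months replicate 6.

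Nmnat1, the nuclear NAD-forming enzyme, ran from 0.68 through 0.98 to 1.73 at 6 months and from 0.57 through 0.67 to 1.45 at 20 months. In 3 of 6 old mice the signal lay below the lowest young mouse, yet replicate 1 at 20 months, at 1.45, exceeded all young mice but 1. The means were 1.096 ± 0.367 and 0.789 ± 0.339 (SD, n = 6 each), a change of -0.31 (SE 0.19, 95% interval -0.71 to 0.10) or 0.809-fold, with a limma adjusted p of 0.713, the smallest of the 10. Without 20 months replicate 1 the change of Nmnat1 was -0.44 (SE 0.16, limma adjusted p = 0.279), and without 6 months replicate 3, the highest young mouse, it was -0.18 (SE 0.16, limma adjusted p = 0.859).

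Cd38, the NAD-degrading enzyme (mm9 chr5:44302865-44302924, plus strand), ran from -0.86 through -0.53 to -0.19 at 6 months and from -1.15 through -0.62 to -0.38 at 20 months. In 2 old mice the signal lay below the lowest young mouse, and in none above the highest. The means were -0.52 ± 0.30 and -0.68 ± 0.31 (SD, n = 6 each), a change of -0.15 (SE 0.16, 95% interval -0.50 to 0.20, limma adjusted p = 0.831). With single arrays left out, it ran from -0.22 (without 6 months replicate 2) to -0.056 (without 20 months replicate 5), with -0.084 without 6 months replicate 6 and -0.095 without 6 months replicate 3.

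Among the nuclear sirtuins, Sirt1 (mm9 chr10:62781827-62781886, minus strand) ran from 1.21 through 1.43 to 1.53 at 6 months and from 0.66 through 1.39 to 1.53 at 20 months. The upper ends met, and the difference lay in 2 low old mice, at 0.66 and 1.07, both on slide 1. The means were 1.42 ± 0.12 and 1.25 ± 0.33 (SD, n = 6 each), a change of -0.16 (SE 0.14, 95% interval -0.46 to 0.13, limma adjusted p = 0.777). Without 20 months replicate 1 the change of Sirt1 was -0.05 (SE 0.09, limma adjusted p = 0.873).

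Sirt6, which acts on chromatin and in DNA repair, was among the most precise of the 10. Its brighter probe (mm9 chr10:81084531-81084589, minus strand) ran from 0.43 through 0.55 to 0.79 at 6 months and from 0.56 through 0.64 to 0.74 at 20 months. All 6 old mice lay above the young median, and none above the highest young mouse. The change was 0.05 (SE 0.08, 95% interval -0.12 to 0.23, limma adjusted p = 0.889; 0.023 without 6 months replicate 5 and 0.095 without 6 months replicate 1), with means of 0.59 ± 0.16 and 0.64 ± 0.07 (SD, n = 6 each). Sirt7, the nucleolar sirtuin, ran at its brighter probe (mm9 chr11:120479736-120479795, minus strand) from 1.76 through 2.15 to 2.40 at 6 months and from 2.07 through 2.24 to 2.40 at 20 months. The old mice lay within the range of the young ones. The means were 2.12 ± 0.22 and 2.22 ± 0.12 (SD, n = 6 each), a change of 0.10 (SE 0.10, 95% interval -0.12 to 0.32, limma adjusted p = 0.822). Leaving out single arrays moved the change of Sirt7 between 0.029 (without 6 months replicate 4) and 0.16 (without 6 months replicate 6).

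Sirt2, the cytosolic sirtuin that deacetylates tubulin (mm9 chr7:29573375-29573434, plus strand), ran from 2.77 through 3.06 to 3.22 at 6 months and from 2.91 through 3.03 to 3.10 at 20 months. All old mice lay inside the range of the young. The means were 3.03 ± 0.15 and 3.02 ± 0.07 (SD, n = 6 each). The change of -0.01 (SE 0.08, 95% interval -0.18 to 0.16, limma adjusted p = 0.976) had the smallest standard error of the 10, and its sign turned under quantile normalization and median scaling.

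Of the mitochondrial sirtuins, Sirt3, the main mitochondrial deacetylase (mm9 chr7:148049581-148049640, minus strand), ran from 2.91 through 3.34 to 3.72 at 6 months and from 3.03 through 3.17 to 3.48 at 20 months. Only replicate 1 of the old mice lay above the young median, and none lay outside the young range. The means were 3.36 ± 0.28 and 3.20 ± 0.15 (SD, n = 6 each), a change of -0.15 (SE 0.13, 95% interval -0.43 to 0.12, limma adjusted p = 0.774). Leaving out single arrays moved the change of Sirt3 between -0.24 (without 6 months replicate 5) and -0.082 (without 6 months replicate 6). Sirt4, known as an inhibitor of glutamate dehydrogenase, ran at its brighter probe (mm9 chr5:115928163-115928222, minus strand) from -0.43 through -0.12 to 0.19 at 6 months and from -0.34 through -0.10 to 0.13 at 20 months. The old mice lay within the range of the young ones here too. The means were -0.14 ± 0.22 and -0.08 ± 0.19 (SD, n = 6 each), a change of 0.06 (SE 0.12, 95% interval -0.19 to 0.31, limma adjusted p = 0.916). It ran from 0.0030 without 6 months replicate 4 to 0.13 without 6 months replicate 6.

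Sirt5, which removes succinyl and malonyl groups (mm9 chr13:43490351-43490410, plus strand), had the largest standard error of the 10, at the 90.0th percentile of all genes. Its signal ran from 1.22 through 1.77 to 2.21 at 6 months and from 1.06 through 1.302 to 2.40 at 20 months. Both extremes of the whole set were old mice, and 5 of 6 old mice lay below the young median. The means were 1.79 ± 0.35 and 1.49 ± 0.49 (SD, n = 6 each), a change of -0.30 (SE 0.22, 95% interval -0.78 to 0.18) or 0.811-fold, with a limma adjusted p of 0.761. Without 20 months replicate 1 the change of Sirt5 was -0.49 (SE 0.17, limma adjusted p = 0.257), and at the other end it was -0.22 without 20 months replicate 6 (SE 0.23, limma adjusted p = 0.888).

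The arrays lay on 3 slides with 2 mice of each age on each, so the ages could also be compared within a slide. Nmnat1 differed by -0.23, -0.17 and -0.52 on slides 1, 2 and 3, Sirt3 by -0.16, -0.04 and -0.27, Sirt5 by -0.02, -0.31 and -0.58, and Nampt by -0.03, -0.07 and -0.56. These 4 genes had a negative change on all 3 slides, with the largest on slide 3, which was scanned on a later day. The other 6 genes changed sign between slides. Sirt1 differed by -0.61 on slide 1, by -0.04 on slide 2 and by 0.15 on slide 3. Cd38 differed by 0.17 on slide 1 and by -0.54 on slide 3. With the slide as a block, the limma adjusted p was 0.53 for Nmnat1, 0.571 for Sirt5, 0.628 for Sirt3 and 0.654 for Nampt. Column 3 of each slide held the old mice alone, all 6 of them, so the column and the age cannot be told apart.

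**Figure D2:**
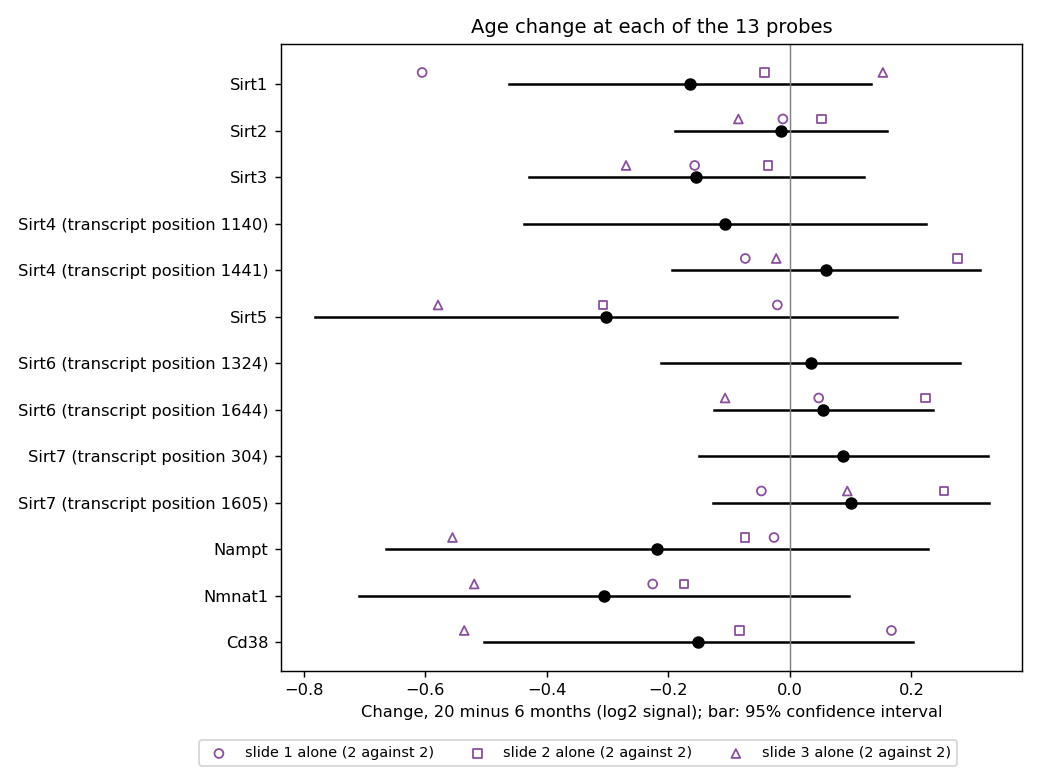
Change between the ages (20 minus 6 months, log2 signal, horizontal axis) at each of the 13 probes, with the 95% interval of the limma fit as a bar and the change on each of the 3 slides as open symbols for the probe used per gene. Every interval contains 0, and the slide values of Sirt1 spread from -0.61 to 0.15.

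The second probes of Sirt4, Sirt6 and Sirt7 allowed a check within the gene. At transcript position 1140 of Sirt4, the probe shown above, the means were -1.71 ± 0.10 and -1.82 ± 0.39 (SD, n = 6 each), a change of -0.11 (SE 0.15, limma adjusted p = 0.895 over all probes), opposite in sign to the brighter probe at 1441. Without 20 months replicate 5, which read -2.48 at position 1140, the change there was 0.03, of the same sign as the brighter probe. In 23 of 24 alternative settings it was negative. Sirt6 at position 1324 changed by 0.03 (SE 0.11, limma adjusted p = 0.961) and Sirt7 at position 304, the probe with the sirtuin signature, by 0.09 (SE 0.11, limma adjusted p = 0.873). The difference in change between the 2 probes was 0.17 for Sirt4 (two-sided exact permutation p = 0.446), 0.02 for Sirt6 (exact p = 0.885) and 0.01 for Sirt7 (exact p = 0.955), and each of these 3 p values was 0.955 after adjustment. Over the 12 arrays the relation between the probes of a gene did not pass the test: Pearson r was 0.04 for Sirt4 (rho -0.03, permutation p = 0.913), -0.03 for Sirt6 (rho 0.12, permutation p = 0.938) and 0.24 for Sirt7 (rho 0.36, permutation p = 0.424). With 12 arrays these correlations are loosely determined and do not show that the probes are unrelated.

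The mice differed from each other along an axis that several members shared. Nampt, Sirt3, Sirt5 and Nmnat1 were high in the same arrays, 6 months replicates 3 and 6 and 20 months replicate 1, and low in 6 months replicate 5 and 20 months replicate 6. Over the 12 arrays, Sirt5 and Nampt correlated at r = 0.957 (rho 0.958, permutation p = 1e-05, the smallest the permutations can give, adjusted p = 0.00045). Sirt3 and Nampt correlated at r = 0.929 (rho 0.909, adjusted permutation p = 0.000675), and Sirt3 and Sirt5 at r = 0.886 (rho 0.916, adjusted permutation p = 0.00195). Nmnat1 correlated with Sirt5 at r = 0.850 (rho 0.839, adjusted permutation p = 0.00375), with Nampt at r = 0.845 (rho 0.741, adjusted permutation p = 0.00326) and with Sirt3 at r = 0.833 (rho 0.804, adjusted permutation p = 0.00527). These 6 relations were 0.772 or more without the 2 arrays farthest from the median, 0.807 or more with age means removed and 0.840 or more with slide means removed. A slide holds 4 arrays, too few for a correlation within it.

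Of the 45 pairs of members, 9 had adjusted permutation p values under 0.05 for both r and rho, and all 9 were positive. The remaining 3 of these were Sirt4 with Sirt7 (r = 0.838, rho 0.832, adjusted permutation p = 0.00333; 0.730 without the 2 farthest arrays), Nampt with Cd38 (r = 0.800, rho 0.776, adjusted permutation p = 0.0107) and Sirt5 with Cd38 (r = 0.725, rho 0.727, adjusted permutation p = 0.0352). Sirt4 and Sirt7 were read here at their brighter probes. Their dimmer probes, whose relation to the brighter ones did not pass the test above, were not tested as a pair. Sirt1 stood on the other side, with r = -0.469 against Sirt5 (rho -0.343, adjusted permutation p = 0.299) and r = 0.06 without 20 months replicate 1 and 6 months replicates 1 and 4, so this relation rests on those arrays. Genes were read on shared arrays, so a property of an array can act on several of them, and its part in these relations was not tested.

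**Figure D3:**
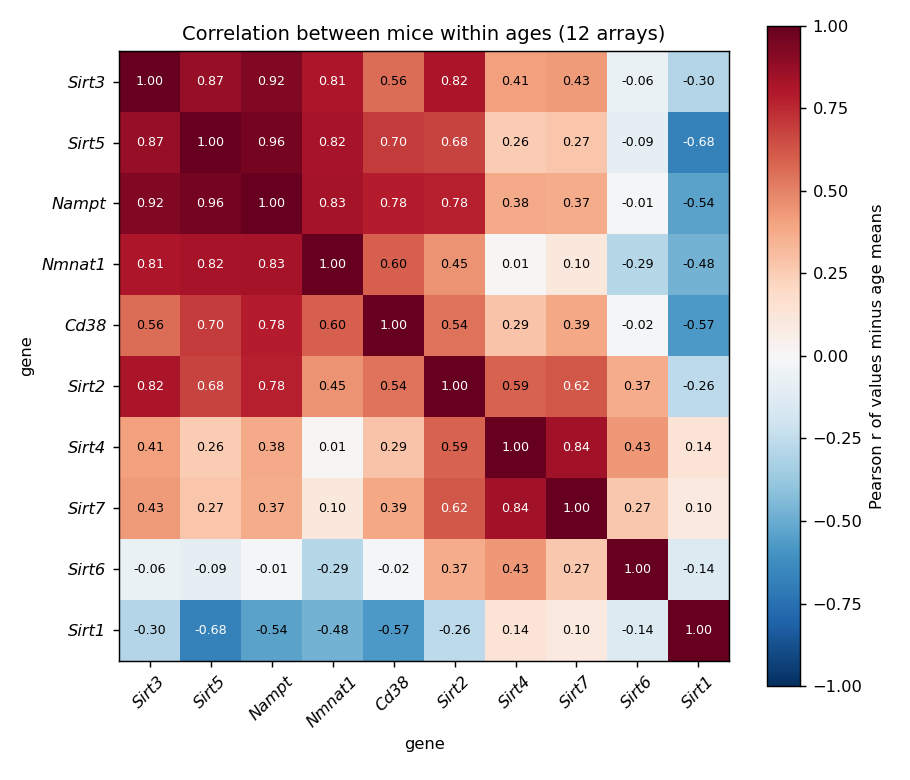
Pearson r between each pair of the 10 genes over 12 arrays after each age's mean was subtracted (both axes list the genes, the colour gives r from -1 to 1). Sirt3, Sirt5, Nampt and Nmnat1 form a block of r from 0.807 to 0.955, and Sirt1 against Sirt5 is at -0.68.

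Markers of other tissues differed between the arrays. All 8 smooth muscle and all 8 endothelial markers were measured, and Acta2 averaged 10.1 at both ages. Heart muscle markers were high in 20 months replicate 1 and 6 months replicate 1, with list means of 3.19 and 2.12 after each marker was centred over the 12 arrays. T and NK cell markers were high in 6 months replicate 4, at 1.56. The fat markers differed in level. Ucp1, the uncoupling protein of brown fat, was bright, at 7.92 ± 0.65 and 7.28 ± 0.55 (SD, n = 6 each). Adipoq, the adipocyte hormone adiponectin, was bright too, at 7.17 ± 0.28 and 7.02 ± 0.24. Elovl3 of the brown adipocyte list was lower, at 1.73 ± 1.27 and 0.37 ± 1.44. Lep of the white adipocyte list was low, at -1.89 ± 0.90 and -1.79 ± 0.82. None of the 12 marker lists had a member past the limma threshold of an adjusted p under 0.05. The brown adipocyte list was negative in 8 of 8 markers (median -0.42), the white adipocyte list in 5 of 6 (median -0.17), the endothelial list in 6 of 8 (median -0.06), the smooth muscle list in 3 of 8 (median 0.02), the macrophage list in 0 of 12 (median 0.27) and the mesothelial list in 5 of 5 (median -1.90). The medians were -0.20 for heart muscle, -0.25 for T and NK cells, 0.02 for fibroblasts, 0.37 for B cells (3 measured), 0.30 for neutrophils (2 measured) and 0.60 for erythroid cells (3 measured). At an unadjusted p under 0.05, beside 7.99% of all genes, there were 5 of 5 mesothelial markers, all lower at 20 months, 5 of 12 macrophage markers, all higher, 2 of 8 brown adipocyte markers, both lower, 1 fibroblast marker in each direction of 6, 1 of 8 heart muscle markers and 1 of 3 erythroid markers, both higher, and 0 in the other 6 lists.

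The brown adipocyte markers moved with the same 4 members, and were not the only list to do so with some of them, as given below. The mean of the brown adipocyte markers ran from -0.35 to 0.90 at 6 months and from -0.50 to 0.65 at 20 months. It was taken around the 12-array mean of each gene, and was highest in 6 months replicates 6 and 3 and 20 months replicate 1. Nmnat1 correlated with this mean at r = 0.884 (rho 0.818, permutation p = 0.00033, adjusted p = 0.0099 over 120 relations; rho adjusted p = 0.044), and at r = 0.877 without the 2 farthest arrays and 0.948 with slide means removed. For Sirt5 r was 0.830 (rho 0.734, adjusted permutation p = 0.0175 and 0.0882), for Sirt3 0.801 (rho 0.748, adjusted permutation p = 0.0239 and 0.0767) and for Nampt 0.795 (rho 0.685, adjusted permutation p = 0.0270 and 0.137). Without the 2 farthest arrays these became 0.749, 0.552 and 0.619. Leaving out 6 months replicates 3 and 6 thus lowered r with the brown fat markers most for Sirt3 and Nampt, and hardly for Nmnat1. However, 20 months replicate 1, also among the highest in these markers, stayed in. How far the relations rest on these high arrays together was not tested. Sirt1 against the same markers had r = -0.199 (rho 0.0699, adjusted permutation p = 0.813), and r was -0.529 without the 2 farthest arrays and -0.469 with age means removed. Without 20 months replicate 1 and 6 months replicates 1 and 4, however, r was 0.272, so the sign of this relation depended on the arrays used. The part of these markers in the changes of the members was not tested.

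**Figure D4:**
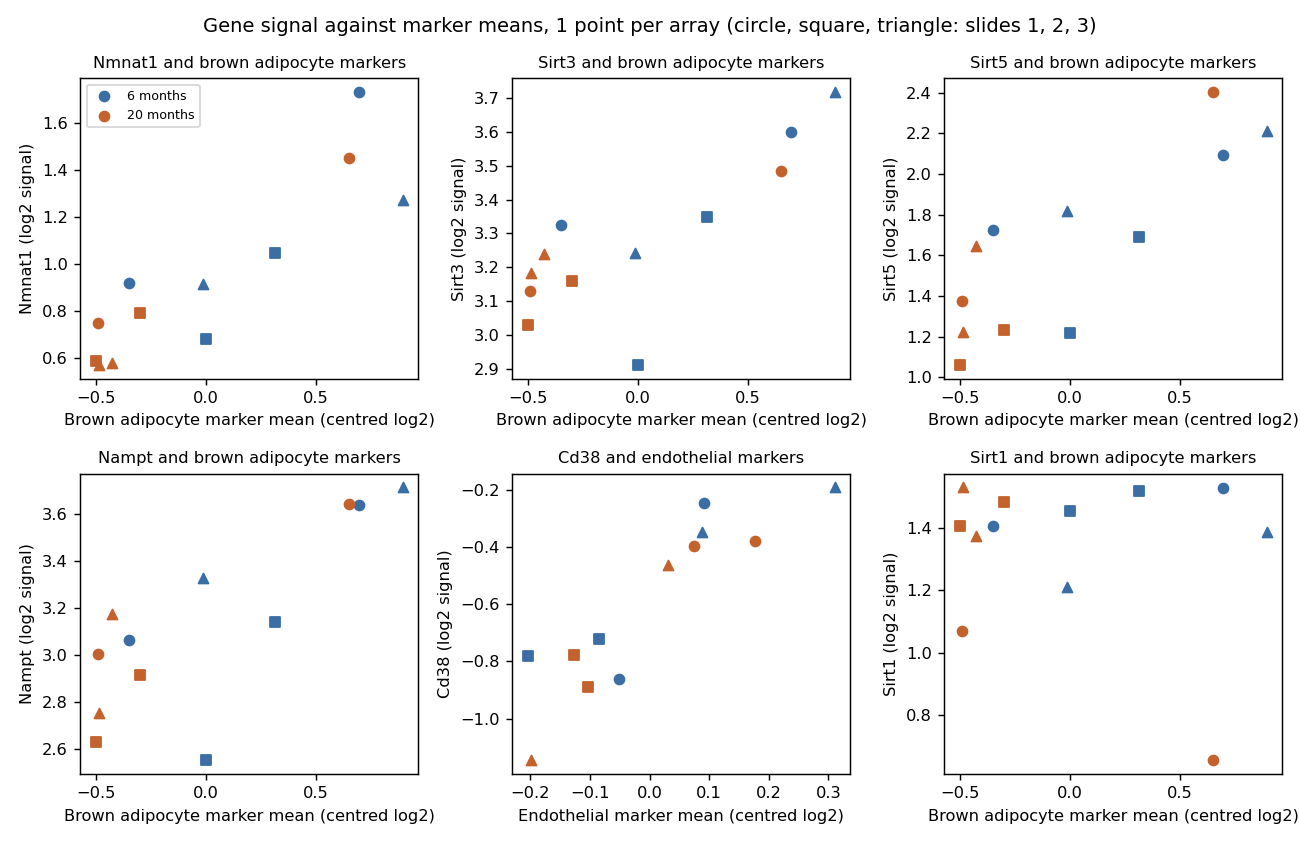
Log2 signal of a gene (vertical axis) against the mean of a marker list (horizontal axis, log2, each marker centred on its 12-array mean), 1 point per array, coloured by age with slides as symbols. Nmnat1, Sirt3, Sirt5 and Nampt are higher where the brown adipocyte markers are higher (r from 0.795 to 0.884). The highest arrays are the same for these genes and these markers (6 months replicates 3 and 6 and 20 months replicate 1). Without the 2 arrays farthest from the marker median, r runs from 0.552 to 0.877. Cd38 is higher where the endothelial markers are higher (r = 0.894), and for Sirt1 with the brown adipocyte markers r is -0.199.

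Of the 120 relations between a member and a marker list, 6 had both adjusted p values under 0.05, 1 of them (Nampt with the white adipocyte markers) over arrays in separate groups. Cd38 moved with the endothelial markers, whose mean ran from -0.20 to 0.31 at 6 months and from -0.20 to 0.18 at 20 months. The correlation was r = 0.894 (rho 0.881, permutation p = 0.00018, adjusted p = 0.0099, rho adjusted p = 0.042), and 0.926 without the 2 farthest arrays. With the endothelial markers Nampt had r = 0.790 (rho 0.762, adjusted permutation p = 0.0270 and 0.0767). Sirt5 had r = 0.756 (rho 0.748, adjusted permutation p = 0.0333 and 0.0767). Without the 2 farthest arrays these were 0.841 and 0.834. For Sirt3 and Nmnat1 r was 0.655 and 0.575 (adjusted permutation p = 0.0983 and 0.183). Cd38 also followed the neutrophil markers (r = 0.747, rho 0.825, adjusted permutation p = 0.0333 and 0.044) and so did Nampt (r = 0.784, rho 0.811, adjusted permutation p = 0.0239 and 0.044), but only S100a8 and S100a9 of that list were measured. At its brighter probe, Sirt6 followed the fibroblast markers (r = 0.757, rho 0.846, adjusted permutation p = 0.0316 and 0.044), and r was 0.642 without the 2 farthest arrays. The dimmer probe of Sirt6, which had r = -0.03 with the brighter one, was not tested against these markers. The smooth muscle means fell into separate groups of arrays, with 6 months replicates 3 and 6 and 20 months replicate 1 at -0.32, -0.46 and -0.26 and the other 9 arrays between 0.03 and 0.20. Those 3 arrays are the highest 3 of all 12 for each of Nampt, Sirt3, Sirt5 and Nmnat1. Within the other 9 arrays, r with the smooth muscle markers was -0.327 for Sirt3, -0.325 for Nampt, -0.0939 for Sirt5 and 0.0134 for Nmnat1. The white adipocyte means also fell into separate groups, and in the larger one of 7 arrays r was 0.749 for Nmnat1, 0.606 for Sirt5, 0.470 for Nampt, 0.410 for Sirt3, 0.310 for Sirt1, 0.155 for Cd38, -0.0722 for Sirt2, -0.424 for Sirt4, -0.642 for Sirt6 and -0.765 for Sirt7.

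The genes most alike to the 3 members with the smallest p were found over the 12 arrays by Pearson r among all named genes. Closest to Nmnat1 were Trarg1, a regulator of GLUT4 traffic (r = 0.965, rho 0.916), Hadh, an enzyme of fatty acid oxidation (r = 0.965, rho 0.937), and Uqcc1, an assembly factor of respiratory complex III (r = 0.954, rho 0.951). Closest to Sirt3 were Ybx2, an RNA-binding protein (r = 0.981, rho 0.958), Atp5b, a subunit of the ATP synthase (r = 0.977, rho 0.951), and Cs, citrate synthase (r = 0.975, rho 0.958). Closest to Sirt5 were Myl1, a myosin light chain of fast skeletal muscle (r = 0.986, rho 0.951), Gtpbp8 (r = 0.982, rho 0.979) and Tmem177 (r = 0.980, rho 0.937). These r values are the highest among all named genes and are given as a description. The 9 genes had changes between -0.31 and -0.13, with limma adjusted p values from 0.72 to 0.855.

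The promoters of the members are shown for the pair with the highest correlation, Sirt5 and Nampt, and for Sirt1, which did not move with them. The table used holds 13 promoters for the 10 genes, each from 250 bases before to 50 after a start, from RefSeq on GRCm38.p6. Capitals mark the GC box, GGGCGG or its reverse complement CCGCCC, in Nampt and Sirt5, and the E-box CACGTG, which clock proteins bind, in Sirt1.
Nampt promoter (GRCm38.p6 chr12:32820085-32820384, plus strand): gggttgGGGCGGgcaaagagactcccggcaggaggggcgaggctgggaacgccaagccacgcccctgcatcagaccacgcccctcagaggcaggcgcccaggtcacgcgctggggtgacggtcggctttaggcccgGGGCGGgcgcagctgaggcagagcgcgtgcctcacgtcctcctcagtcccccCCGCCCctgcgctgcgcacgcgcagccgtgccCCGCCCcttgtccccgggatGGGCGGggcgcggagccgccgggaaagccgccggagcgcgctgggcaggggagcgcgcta
Sirt5 promoter (GRCm38.p6 chr13:43365285-43365584, plus strand): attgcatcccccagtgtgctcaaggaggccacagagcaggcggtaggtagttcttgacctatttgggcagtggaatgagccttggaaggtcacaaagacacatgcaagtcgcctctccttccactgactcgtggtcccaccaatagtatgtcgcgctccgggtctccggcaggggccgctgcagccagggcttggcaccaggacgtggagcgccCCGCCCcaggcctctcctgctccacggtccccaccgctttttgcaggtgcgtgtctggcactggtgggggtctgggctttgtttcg
Sirt1 promoter (GRCm38.p6 chr10:63338986-63339285, minus strand): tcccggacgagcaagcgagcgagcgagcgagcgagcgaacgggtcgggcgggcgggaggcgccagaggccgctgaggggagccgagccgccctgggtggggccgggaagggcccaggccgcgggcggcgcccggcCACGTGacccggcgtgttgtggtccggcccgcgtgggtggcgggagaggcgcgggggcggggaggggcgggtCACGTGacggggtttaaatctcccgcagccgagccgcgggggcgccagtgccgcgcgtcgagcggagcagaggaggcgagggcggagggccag

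Nampt held 5 GC boxes at 76.3% GC, Sirt5 held 1 at 62.0% and Sirt1 held 7 at 79.0%. At least 1 GC box was found on either strand in 9 of the 13 member promoters, beside 35.7% of all 32841 promoters of the table. The windows of Nmnat1 overlap each other, as do those of Sirt6, so the 13 are not independent. The same GC box and the same CCAAT of Nmnat1 are counted in both of its windows. The E-box was found in 1 of 13, that of Sirt1 with 2 copies, beside 7.15% of all. CCAAT was found in 5 of 13 beside 37.4%, TATAAA in 0 of 13 beside 13.6%, the consensus motif of NRF1 in 1 of 13 (Sirt6) beside 0.971%, and TNAAGGTCA, the element of the estrogen-related receptors, in 0 of 13 beside 1.28%. The median GC content was 61.3% beside 52.7%. The promoter of Cd38 held a single CpG, whereas the other 12 held between 15 and 47. These are letters in a window and no measure of binding.

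The pathways around the members were read from 4 lists, whose counts stand beside 0.314% of all genes at an adjusted and 7.99% at an unadjusted p under 0.05. Of 21 other genes of NAD synthesis and salvage, 15 were tested, and 0 were higher and 0 lower at 20 months by limma, with 1 higher and 1 lower at an unadjusted p under 0.05. The changes were positive in 4 and negative in 11, with a median of -0.10. Nnmt, which methylates nicotinamide and so withdraws it from salvage, went from 2.32 ± 0.31 to 1.93 ± 0.22 (SD, n = 6 each), a change of -0.39 (SE 0.14, limma adjusted p = 0.486). Afmid, an enzyme of the route from tryptophan, changed by 0.29 (SE 0.12) and Nadk2, the mitochondrial NAD kinase, by -0.23 (SE 0.13), with limma adjusted p values of 0.564 and 0.68.

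Of 16 other NAD consumers, mainly poly-ADP-ribose polymerases, 14 were tested, with 0 higher and 0 lower and 1 lower at an unadjusted p under 0.05. The median change was -0.03, with 6 positive and 8 negative. Bst1, a relative of CD38 that also splits NAD, changed by -0.56 (SE 0.21, limma adjusted p = 0.487), from -2.39 ± 0.44 to -2.95 ± 0.36 (SD, n = 6 each). Parp3 changed by 0.17 (SE 0.09) and the tankyrase Tnks2 by -0.08 (SE 0.07), with limma adjusted p values of 0.688 and 0.811. Parp1, the most active nuclear consumer of NAD after DNA damage, changed by 0.06 (SE 0.11, limma adjusted p = 0.915) and was named outside the rule after its value was seen.

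Of 20 substrates and regulators of sirtuins, 18 were tested, with 0 higher and 0 lower and 1 higher at an unadjusted p under 0.05. The median change was -0.04, with 5 positive and 13 negative. Ucp2, a mitochondrial carrier whose gene SIRT1 is known to repress, changed by 0.32 (SE 0.13, limma adjusted p = 0.563). Foxo4, a transcription factor that sirtuins deacetylate, changed by -0.54 (SE 0.25, limma adjusted p = 0.631), and Sod2, the mitochondrial superoxide dismutase on which SIRT3 acts, by -0.36 (SE 0.20, limma adjusted p = 0.686).

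Of 16 clock genes, which were listed because the clock drives Nampt in other tissues, 15 were tested, with 0 higher and 0 lower, and 0 at an unadjusted p under 0.05. The median change was 0.12, with 11 positive and 4 negative. Ciart, a repressor within the clock, changed by 1.36 (SE 0.69), Nr1d1, which encodes REV-ERB alpha, by 0.31 (SE 0.17) and Dbp, a clock output gene, by 0.41 (SE 0.23), with limma adjusted p values of 0.675, 0.68 and 0.691. The signal of Ciart was low and varied widely between mice, at -4.17 ± 1.38 and -2.81 ± 1.36 (SD, n = 6 each).

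**Figure D5:**
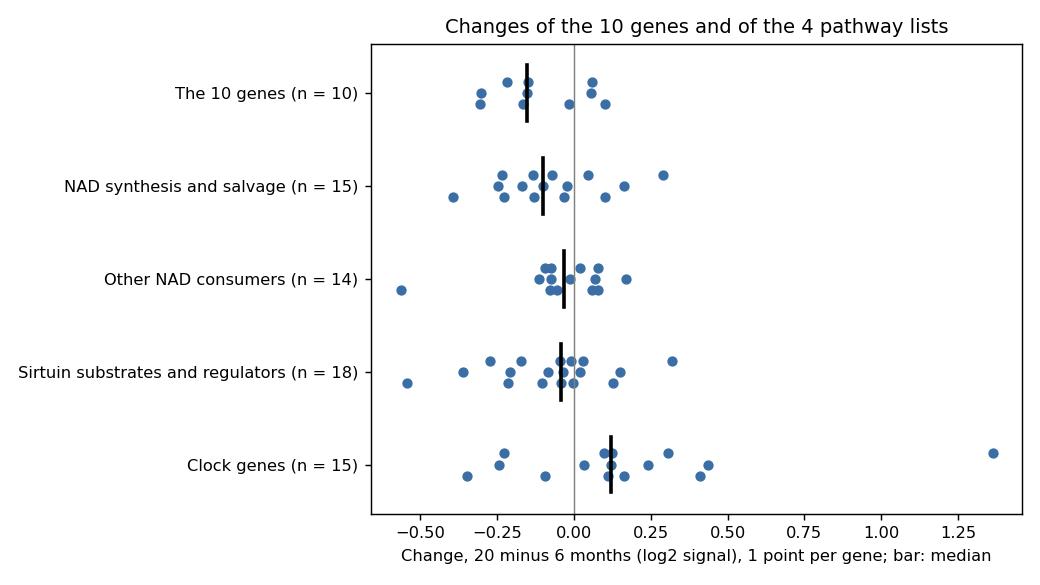
Change between the ages (20 minus 6 months, log2 signal, horizontal axis) for each tested gene of the 4 pathway lists and the 10 members, 1 point per gene, with the median of each list marked. The medians lie between -0.15 for the members and 0.12 for the clock genes, and no point passed an adjusted p under 0.05 in limma.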

How the data were processed

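Total RNA from 12 aortas was measured on Agilent arrays of design 028005, whose probe positions refer to mm9, with Feature Extraction 10.7.1.1 and protocol GE1_107_Sep09, per the file headers. The deposited scanner files give intensity: the processed green signal, with background subtracted and spatial detrending. A deposited table of log2 values, whose steps are not given in the sources used here, served as an alternative. Its columns correlate at 0.921 to 0.991 with the centred scanner values, with slopes of 0.871 to 1.04, and column medians from -0.03 to 0.01; its direction and log2 scale follow from this comparison. On each array 47.5% to 55.8% of gene probes passed the scanner's test against background. The number of arrays limits the precision.

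The log2 signal of gene probes, less its 75th percentile on that array, was fitted with limma 3.58.1 (R 4.3.3), with age as the only term. Spots flagged as outliers were left out. Probes well above background on at least 6 of 12 arrays were tested, the brightest per gene for genes. The threshold was a Benjamini-Hochberg adjusted p under 0.05. Each sample of a group is an individual mouse, per the labels' protocols. The procedure was tested on simulated data.

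The members and lists were chosen with earlier results of these data known. Named genes were all members with every probe, from each pathway list the members past the threshold or else the 3 with the smallest p, the 3 genes most alike to each of the 3 members with the smallest p (model numbers and clones left out), and markers given as values beside a result. The correlations (100000 permutations, two-sided, Benjamini-Hochberg over 45 pairs and 120 marker relations), the probe comparisons and the split of arrays at a gap over 40% of the range were added after seeing the data. The replicate numbers were not used as pairs in the main fit. Between the arrays of a replicate number, the correlations of deviations ran from -0.36 to 0.32. The highest, 0.32 for replicate 2 and 0.14 for replicate 4, belong to arrays that share a slide. These values cannot decide whether the numbers pair the samples.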

Additional observations from a re-analysis of the deposited data

Results flagged for a closer look

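Nmnat1 in 20 months replicate 1, at 1.45, stood apart from the other 5 old mice: its gap to the nearest of them was 0.7499 of the range of the group, above the critical value of 0.625 for 6 samples. Of 20 groups examined (10 genes at 2 ages) it was the only one so marked, and chance marks about 1 group in 20. The same array was high in heart muscle markers, at 3.19, and in brown adipocyte markers, at 0.65, and their part in the value was not tested.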

How the results depend on the processing

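Under the 25 alternatives run (24 for single probes), the counts of member genes, member probes and genes of the 4 lists past the threshold stayed at 0. Nampt, Nmnat1, Cd38, Sirt1, Sirt3 and Sirt5 were negative and Sirt6 and Sirt7, at the brighter probe, positive in all of them; Nmnat1 ranged from -0.50 to -0.18 and Sirt5 from -0.50 to -0.22. Signs turned for Sirt2, for Sirt4 and for the dimmer probes of Sirt4, Sirt6 and Sirt7. Sirt2 was 0.0053 under quantile normalization, 0.0189 under median scaling and 0.0052 in the value table, and ran from -0.0677 to 0.0227 with single arrays left out. Sirt4 was -0.0232 as the mean over its probes. With single arrays left out, the dimmer probes ran from -0.207 to 0.0254 for Sirt4, from -0.0205 to 0.0882 for Sirt6 and from -0.0025 to 0.126 for Sirt7, and the last was -0.0547 without the 3 arrays high in other tissues. The cause was not tested. With the replicate block, Nampt kept its change of -0.22 (limma adjusted p = 0.86), Nmnat1 had an adjusted p of 0.833, and 6 genes of all were higher and 0 lower; no member's call changed. Over all genes, the counts of higher and lower genes were 44 and 9, beside 29 and 4 with median scaling, 20 and 3 without a filter on dim probes, 100 and 22 with array weights, 26 and 4 without the 3 arrays, and from 19 and 2 to 48 and 11 with single arrays left out. With 6 mice per age, the intervals of single members in the main fit allow changes of up to -0.78. Without the 3 arrays, the change was -0.504 (SE 0.200) for Sirt5 and -0.496 (SE 0.186) for Nmnat1, and that bound does not cover this setting.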
